A study of Mus musculus with 10 samples.

Results

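The 40 colonic epithelial lineage genes are markers of the cell types that line the mouse large intestine. They were chosen by name, as markers of absorptive, goblet, stem, endocrine and tuft cells with the structural genes and transcription factors those cells share. All 40 were found among the 22607 genes measured. Read by role, the set holds 9 shared structural genes, 11 absorptive, 9 goblet, 2 stem, 2 endocrine and 2 tuft cell genes, and 5 lineage transcription factors.

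The libraries were not made from epithelium. They hold RNA from sorted antigen-presenting cells (APCs), the immune cells that show antigen to T cells on MHC class II (MHCII). All mice were wild type (WT) C57BL/6 at 8 weeks of age, and the labels name no treatment. There were 5 groups of 2 libraries: colonic MHCII+ APCs, colonic CD11b+CD11c+, colonic CD11b+ and colonic CD11c+ dendritic cells or mononuclear phagocytes, and splenic MHCII+ APCs. CD11b and CD11c are integrin chains used to sort myeloid cells, and the 3 groups sorted on them are called the integrin-sorted subsets here. Whether a group's 2 libraries stem from different mice, or from pools of mice, is not in the labels, so each p-value measures the spread between libraries, which may be technical. The MHCII+ and the integrin-sorted libraries are separate sets in the labels, so in any comparison across them the gate and the set cannot be told apart.

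The colonic surface is a single sheet of cells renewed from stem cells at the crypt base. Absorptive colonocytes take up water and salt, goblet cells secrete the mucus layer, enteroendocrine cells release peptide hormones and serotonin, and tuft cells sense luminal chemicals. The cells are held together by E-cadherin and claudins and are filled with simple-epithelial keratins.

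Levels are CPM, a gene's counts as a share of its library after trimmed-mean scaling over all 10 libraries, and a fold change is on the log2 scale with its standard error (SE). A gene was called when the Benjamini-Hochberg adjusted p of edgeR's quasi-likelihood test, adjusted over all genes tested, was below 0.05. Libraries held between 12806139 and 41769042 estimated counts. Each library carried the genes its label names: H2-Ab1, an MHCII chain, lay between 3595 and 8176 CPM, and the leukocyte marker Ptprc between 1060 and 2925 CPM. Itgam, which encodes CD11b, read 752 and 875 CPM in the CD11b+CD11c+ libraries and 760.2 and 766 CPM in the CD11b+ libraries, against 26.9 and 41.5 CPM in the CD11c+ libraries. Itgax, which encodes CD11c, was present in the CD11b+ libraries as well, at 503 and 574 CPM, against 817 and 968 CPM in the CD11c+ libraries.

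Taken as a sum, the 40 genes separated the 5 groups. The sum was 9800 and 9274 CPM in the colonic MHCII+ libraries, 1393 and 1805 CPM in the CD11b+CD11c+ libraries, 2483 and 1830 CPM in the CD11b+ libraries, 847.5 and 1106 CPM in the CD11c+ libraries, and 32.5 and 43.3 CPM in the splenic MHCII+ libraries. The colonic MHCII+ libraries stood above every other library, the splenic ones below every other, and the CD11c+ libraries lay below those of the other 2 subsets, with CD11b+CD11c+ below CD11b+ libraries by the narrow gap between 1805 and 1830 CPM. The 40 genes made up 1.03 and 0.98% of all counts in the colonic MHCII+ libraries and 0.00357 and 0.00478% in the splenic ones. The mean sum was 252 times as high in colonic MHCII+ as in splenic MHCII+ libraries, and 6.05 times as high in colonic MHCII+ libraries as over the 6 subset libraries. In sorted bulk RNA, fewer cells of a type and less RNA per cell cannot be told apart.

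**Figure D1:**
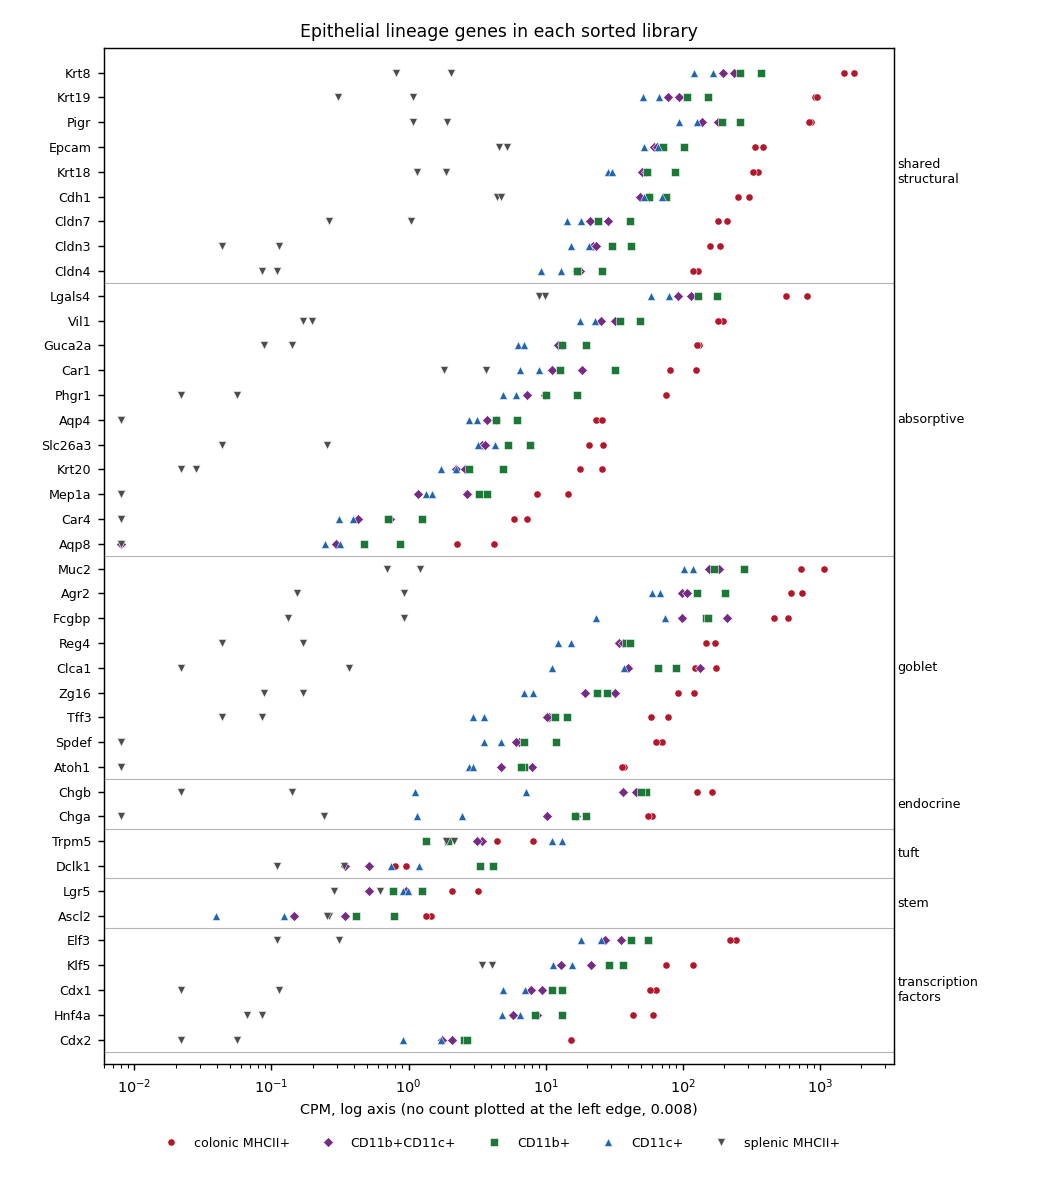
Level of each of the 40 genes (CPM, log axis, values of 0 drawn at the left edge) in each of the 10 libraries, 1 point per library, coloured by group and ordered by role. Colonic MHCII+ points lie farthest right for nearly all genes and splenic MHCII+ points farthest left. The tuft cell genes Dclk1 and Trpm5 and the stem cell genes Lgr5 and Ascl2 break this order.

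Colonic against splenic MHCII+ APCs asks which genes differ between the sorted bulk RNA of colon and spleen. The structural genes were abundant in the colonic libraries and near the floor in the spleen. Krt8, a keratin of simple epithelia (chr15:101996698-102004482 in mm10, minus strand), read 1779 and 1503 CPM in colonic MHCII+ libraries, against 0.811 and 2.03 CPM in splenic MHCII+ libraries. Its partner Krt18 read 357 and 326 CPM in the colonic and 1.16 and 1.89 CPM in the splenic libraries. Krt19, another simple keratin, read 917 and 947 CPM against 0.307 and 1.07 CPM in the same order of groups. The groups were far apart for each keratin, with log2 fold changes of 10.23 ± 0.41 for Krt8, 7.84 ± 0.22 for Krt18 and 10.49 ± 0.42 for Krt19 (SE, n = 2 each). Pigr, the receptor that carries IgA across the epithelium, read 869 and 834 CPM in colonic and 1.07 and 1.92 CPM in splenic libraries. Epcam and Cdh1, both adhesion molecules of epithelial cells, kept a measurable level in the spleen, at 5.26 and 4.60 CPM for Epcam and 4.40 and 4.68 CPM for Cdh1, against 388 and 338 CPM and 306 and 253 CPM in the colonic libraries. The tight junction genes Cldn3, Cldn4 and Cldn7 read 186 and 158 CPM, 129 and 118 CPM, and 209 and 179.6 CPM in the colonic libraries, against at most 1.04 CPM in the splenic ones. Epcam and Cdh1 had the smallest changes among the 9 structural genes, at log2 6.21 ± 0.14 and 5.96 ± 0.14.

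In this comparison 39 of the 40 genes were higher in colonic MHCII+ libraries and 0 were lower, beside a background of 31.6% of 15076 genes called higher and 28.7% called lower. No gene was lower at an unadjusted p below 0.05, nor by DESeq2 or limma. Dclk1 was the 1 gene not called, at log2 2.01 ± 0.79 and adjusted p = 0.066 by edgeR. For all 40 genes both colonic libraries lay above both splenic ones, a count for which the share over all genes was not computed. The median log2 fold change was 9.30, a 628-fold difference, with the genes that had no splenic counts placed at their lower bound. The median of all genes was 0.02. By role, the median was 9.93 for goblet, 9.80 for endocrine, 9.40 for transcription factor, 9.19 for structural and 7.39 for absorptive genes, and 2.50 for stem and 1.82 for tuft cell genes.

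The secreted goblet products gave most of the goblet signal. Muc2, the gel-forming mucin of the colonic mucus (chr7:141690340-141754693, plus strand), read 730.4 and 1072 CPM in colonic and 0.701 and 1.21 CPM in splenic MHCII+ libraries. Agr2, a disulfide isomerase that folds Muc2, read 740.1 and 617 CPM in colonic and 0.153 and 0.931 CPM in splenic libraries. Fcgbp, a protein of the mucus gel, read 465 and 583 CPM against 0.131 and 0.931 CPM. Scaled by transcript length as well, in TPM, Agr2 stood first of the 40 genes in each colonic group, with a mean of 1109 TPM in colonic MHCII+ libraries, ahead of Krt8 at 674.7 TPM and Muc2 at 631.5 TPM. Spdef and Atoh1, transcription factors of secretory cells, had no counts in the spleen and read 70.8 and 64.1 CPM and 37.2 and 35.9 CPM in colonic MHCII+ libraries. Against a floor of 3 counts per splenic library, Spdef was at least 897.2-fold and Atoh1 at least 486.2-fold higher.

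Among the absorptive genes, the actin bundler Vil1 read 197 and 182 CPM in colonic and 0.197 and 0.169 CPM in splenic MHCII+ libraries. Lgals4, a galectin of the gut surface, read 801 and 569 CPM in colonic and 8.92 and 9.82 CPM in splenic libraries, the highest splenic level of the 40 genes. Phgr1, a small protein of the gut surface, read 75.8 and 75.5 CPM against 0.0219 and 0.0564 CPM. Guca2a, which encodes the peptide guanylin, read 132 and 127 CPM against 0.0876 and 0.141 CPM. Car1, a carbonic anhydrase that red blood cells also carry, read 126 and 80.5 CPM against 1.82 and 3.70 CPM, the smallest change of the 11 at log2 5.27 ± 0.37. A further 4 absorptive genes had no counts in the spleen, and the floor puts the difference at 326.1-fold or more for the water channel Aqp4, 154.5-fold or more for the protease Mep1a, 87.34-fold or more for Car4 and 42.58-fold or more for the water channel Aqp8. Among the transcription factors, Cdx1, which sets intestinal identity, read 64.2 and 57.9 CPM in colonic and 0.0219 and 0.113 CPM in splenic libraries. Elf3 read 246 and 223 CPM against 0.110 and 0.310 CPM, and Klf5, which leukocytes also transcribe, read 118 and 75.05 CPM against 3.44 and 4.04 CPM.

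The stem cell genes were low, and their changes were smaller than those of most other roles. Lgr5, the Wnt-pathway receptor of crypt base stem cells, read 3.23 and 2.08 CPM in colonic and 0.285 and 0.621 CPM in splenic MHCII+ libraries. Ascl2, a transcription factor of the same cells, read 1.46 and 1.33 CPM against 0.263 and 0.254 CPM. Both passed the test, at log2 2.58 ± 0.62 and 2.43 ± 0.62. By TPM Lgr5 was last of the 40 in colonic MHCII+ libraries, at a mean of 0.571 TPM.

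Most other epithelial lists moved with these 40, and the tuft list less so. All 18 junction and polarity genes were higher in colonic than in splenic MHCII+ libraries, led in level by Dsp, the desmosomal plaque protein desmoplakin, at 259.1 ± 31.46 against 0.7079 ± 0.08332 CPM (SD, n = 2 each). Of 12 further epithelial splicing and transcription factors tested, 11 were higher, among them the splicing regulator Esrp1 at 70.47 ± 19.06 against 0.07519 ± 0.01338 CPM. All 16 further goblet genes were higher, as were 20 of 21 further absorptive genes, 10 of 11 proteases and trafficking genes, 12 of 14 further endocrine genes and 3 of 4 squamous genes tested. Of 14 further stem and crypt base genes, 10 were higher and 1 lower. Of 10 further tuft cell genes 5 were higher and 1 lower, with a median log2 fold change of 0.76, and of 8 small intestinal genes 7 were higher and 1 lower. Markers of other cell types moved too. The sum of 7 plasma cell markers was 13790 and 15110 CPM in colonic and 289.7 and 264.9 CPM in splenic MHCII+ libraries, and that of 10 stromal and endothelial markers 1191 and 1437 CPM against 164.5 and 348 CPM. All 7 plasma cell markers and 8 of 10 stromal markers were higher, while 7 of 8 pan-leukocyte markers were lower. Their part in the epithelial result was not tested.

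The integrin-sorted subsets divide the phagocytes of the colon by which integrin they carry. Levels of the epithelial lineage genes were higher in CD11b+ than in CD11c+ libraries, by a median of 2.24-fold over the genes tested and of 11.7-fold over the endocrine pair. Of 38 genes tested, 29 were higher in CD11b+ than in CD11c+ libraries, 1 was lower and 8 were not called, beside a background of 27.0% of 14225 genes higher and 25.0% lower. Aqp8 and Ascl2 had too few counts to be tested. The median log2 fold change was 1.16, where the median of all genes was -0.02. The count rests in part on single libraries: 19 genes were called higher without CD11c+ replicate 1 and 14 without CD11b+ replicate 1. Markers of other cells moved in the same comparison: 8 of 10 stromal markers were higher in CD11b+ than in CD11c+ libraries with a median of 1.54, 8 of 8 macrophage markers were higher with a median of 3.47, and 8 of 8 T cell and 6 of 7 plasma cell markers were lower. Their part in the epithelial result was not tested.

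The keratins, claudins and absorptive genes moved by similar amounts. Krt8 read 369.9 and 262 CPM in CD11b+ libraries, against 122 and 166 CPM in CD11c+ libraries, at log2 1.14 ± 0.22 (adjusted p = 0.0074 by edgeR). Vil1 read 49.0 and 35.1 CPM in CD11b+ and 17.9 and 22.7 CPM in CD11c+ libraries. Lgals4 read 178 and 129 CPM in CD11b+ and 58.4 and 79.3 CPM in CD11c+ libraries. The groups did not overlap for these genes, and CD11b+ replicate 1 was the higher of its group in each. Role medians were 1.03 for structural genes with 7 of 9 called, 1.02 for transcription factors with 4 of 5, 1.23 for absorptive genes with 8 of 10 tested, and 1.53 for goblet genes with 7 of 9. Cdh1 stood apart among the structural genes, at 76.1 and 56.5 CPM in CD11b+ and 70.2 and 52.4 CPM in CD11c+ libraries, with overlapping groups and log2 0.12 ± 0.19 (adjusted p = 0.63 by edgeR). Cdh1 is also transcribed by some dendritic cells. The other genes not called were Epcam, Krt20, Car4, Cdx2, Fcgbp, Clca1 and Lgr5, with adjusted p between 0.053 and 0.89.

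Among the goblet genes, the largest changes called were in secreted products. Tff3, the trefoil peptide of goblet cells, read 14.3 and 11.7 CPM in CD11b+ and 2.96 and 3.52 CPM in CD11c+ libraries, at log2 2.01 ± 0.20 (adjusted p = 0.00076 by edgeR). Zg16, a lectin of the mucus that binds bacterial wall sugars, read 27.8 and 23.6 CPM in CD11b+ and 8.10 and 6.98 CPM in CD11c+ libraries. Reg4, a C-type lectin of deep crypt secretory cells, read 38.6 and 41.2 CPM in CD11b+ and 15.3 and 12.4 CPM in CD11c+ libraries, at log2 1.53 ± 0.12. Muc2 itself changed less, with 281 and 170.0 CPM in CD11b+ and 102 and 119.6 CPM in CD11c+ libraries. Clca1, a mucus metalloprotease, and Fcgbp varied most between libraries of a group. Clca1 read 40.2 and 133 CPM in CD11b+CD11c+, 66.3 and 89.9 CPM in CD11b+ and 11.1 and 37.1 CPM in CD11c+ libraries, and Fcgbp 98 and 212 CPM, 148 and 153 CPM, and 23.3 and 74.8 CPM in the same groups. Neither was called on the CPM scale in a subset comparison. Further lists moved with the members: 12 of 16 further goblet genes were higher and 1 lower in CD11b+ than in CD11c+ libraries, 12 of 19 further absorptive genes higher and 1 lower, and 9 of 18 junction genes higher and 2 lower. The further goblet genes were led in level by Ccl6, a chemokine that macrophages also make, at 746.5 ± 3.239 against 24.73 ± 2.339 CPM (SD, n = 2 each).

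The CD11b+CD11c+ libraries lay between the other subsets. Against CD11c+ libraries, 8 genes were higher and 1 lower of 38 tested, beside a background of 20.4% higher and 22.5% lower. In this fit the share of members called higher, 21.1%, was close to that of all genes. The 8 were the endocrine genes Chga and Chgb, the goblet genes Tff3, Zg16, Reg4 and Atoh1, the absorptive gene Guca2a and the keratin Krt18. Their log2 fold changes ran between 0.74 ± 0.22 for Krt18 and 3.31 ± 0.69 for Chgb. On TPM, limma lost the Krt18 call (adjusted p = 0.079 with an offset of 1 and 0.074 with 0.1) and, with an offset of 1, the Atoh1 call (adjusted p = 0.053). The median over the 38 genes was 0.51, where that of all genes was -0.09. With replicate number as a block in the fit, 11 members were called higher, beside 2918 of 14225 genes. Without a count filter 13 members were called higher, beside 3133 of 19024 genes. Leaving out CD11c+ replicate 1 or CD11b+CD11c+ replicate 2 left 5 genes called higher. Against CD11b+ libraries, 0 genes were higher and 1 lower by edgeR, beside a background of 3.79% higher and 5.84% lower. At an unadjusted p below 0.05, 1 was higher and 13 lower, DESeq2 called 0 higher and 4 lower, and limma called none in either direction. The median there was -0.56, where that of all genes was 0.01. The comparisons with CD11c+ share those libraries, so they are not independent of each other.

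**Figure D2:**
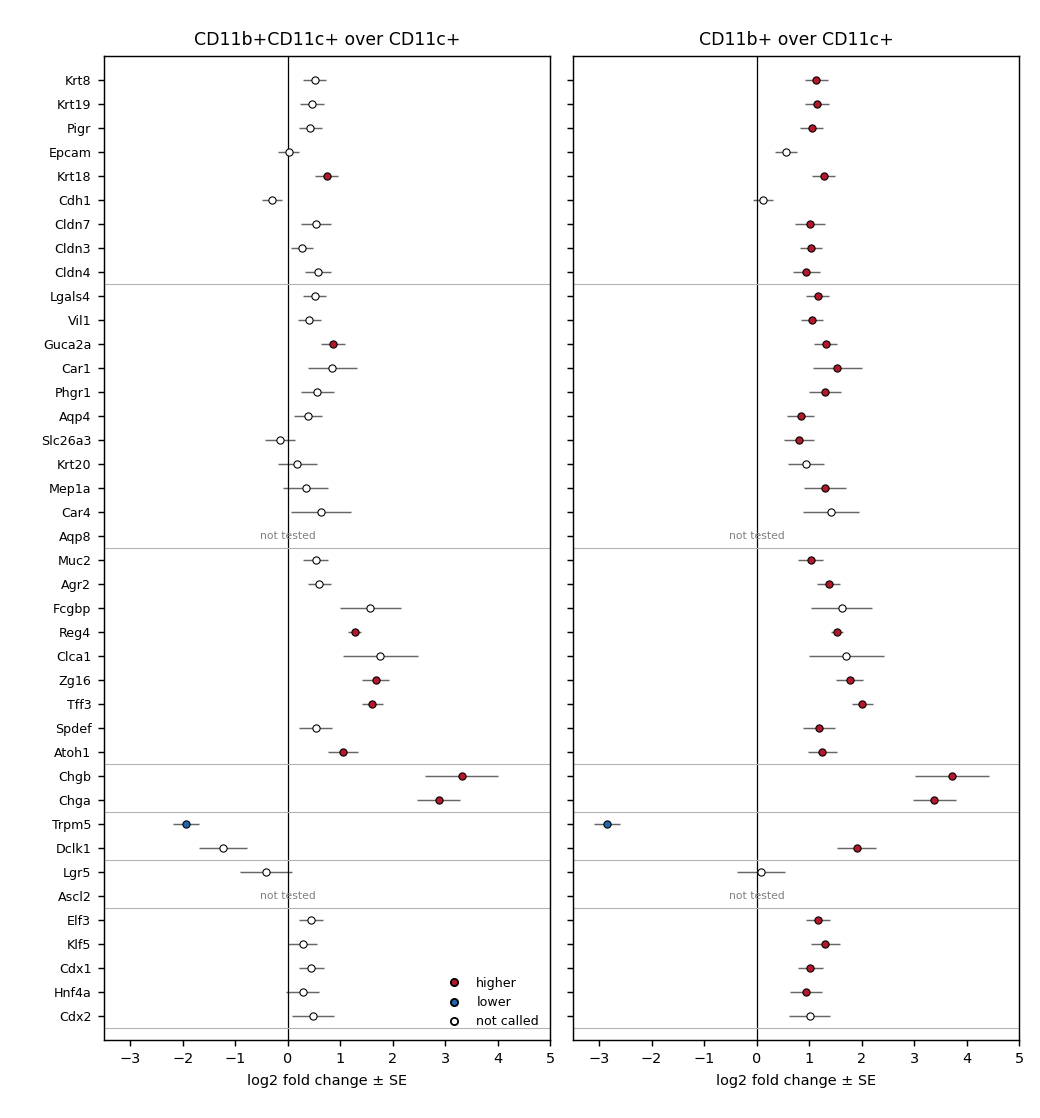
Log2 fold change of each tested gene with its standard error (bars), for CD11b+CD11c+ over CD11c+ libraries on the left and CD11b+ over CD11c+ libraries on the right, with 2 libraries a group. Red marks genes called higher, blue lower and white not called; Chga and Chgb lie farthest right and Trpm5 farthest left in both panels.

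The endocrine genes set the CD11c+ libraries apart. Chga and Chgb encode chromogranins, acidic proteins packed into the hormone granules of enteroendocrine cells. Chgb (chr2:132781278-132795079, plus strand) read 165 and 127 CPM in colonic MHCII+, 46.0 and 36.4 CPM in CD11b+CD11c+, 53.7 and 49.3 CPM in CD11b+, 1.11 and 7.23 CPM in CD11c+ and 0.0219 and 0.141 CPM in splenic MHCII+ libraries. Chga (chr12:102554969-102565028, plus strand) read 59.6 and 55.7 CPM in colonic MHCII+, 16.7 and 10.3 CPM in CD11b+CD11c+, 19.9 and 16.5 CPM in CD11b+, 1.146 and 2.47 CPM in CD11c+ and 0.241 and 0 CPM in splenic MHCII+ libraries. Both CD11c+ libraries lay below every other colonic library for both genes, and CD11c+ replicate 1 was the lowest. Chgb was higher by log2 3.31 ± 0.69 in CD11b+CD11c+ than in CD11c+ libraries (adjusted p = 0.012 by edgeR), and by 3.72 ± 0.70 in CD11b+ than in CD11c+ libraries (adjusted p = 0.0064). Chga was higher by 2.87 ± 0.41 (adjusted p = 0.0033 by edgeR) and 3.38 ± 0.41 (adjusted p = 0.0015) in the same comparisons.

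The hormone genes were low in CD11c+ libraries as well. Insl5, a relaxin-family hormone of colonic L cells, read 9.48 and 4.89 CPM in CD11b+CD11c+ and 5.67 and 7.12 CPM in CD11b+ libraries, against 0.316 and 0.309 CPM in CD11c+ libraries, at log2 4.42 ± 0.46 and 4.33 ± 0.46. Gcg, the precursor gene of GLP-1, read 4.85 and 6.09 CPM in CD11b+CD11c+ and 5.75 and 4.36 CPM in CD11b+ libraries, against 0.0790 and 0 CPM in CD11c+ libraries. Pyy, another peptide of L cells, and Tph1, the enzyme of gut serotonin synthesis, were picked after their values were seen. Pyy read 4.92 and 2.23 CPM in CD11b+CD11c+ and 4.10 and 5.18 CPM in CD11b+ libraries, against 0.0395 and 0 CPM in CD11c+ libraries. Tph1 read 1.91 and 3.002 CPM and 2.76 and 2.53 CPM, against 0.0790 and 0.618 CPM. Of further endocrine genes tested in the 6 subset libraries, 9 of 10 were higher in CD11b+ than in CD11c+ libraries, with a median of 2.90, and 6 were higher in CD11b+CD11c+ than in CD11c+ libraries, with a median of 2.63. The sum of the 8 macrophage markers moved with them, at 9616 and 12800 CPM in CD11b+CD11c+ and 7909 and 9012 CPM in CD11b+ libraries, against 295.7 and 1335 CPM in CD11c+ libraries. Its part in the endocrine result was not tested.

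**Figure D3:**
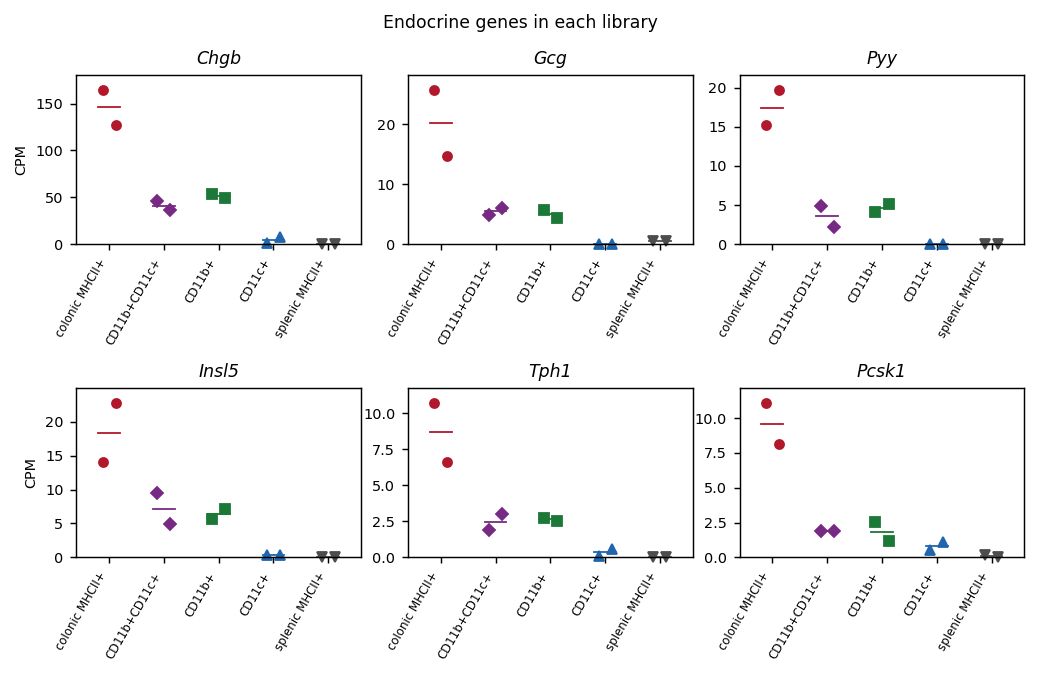
Level (CPM) of Chgb and 5 other endocrine genes (Gcg, Pyy, Insl5, Tph1 and Pcsk1, of which Pyy, Tph1 and Pcsk1 were chosen after their values were seen) in each library by group, 1 point per library. In every panel both CD11c+ libraries lie below all other colonic libraries, for example at 1.11 and 7.23 CPM for Chgb.

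The stretch before each gene's start was read for the binding motifs of 3 factor types named among the 40 genes, and 30 of the 40 had a promoter in the RefSeq table (GRCm38.p6). In the 250 bases before the start, on both strands, CAGCTG, an E-box of the type that Atoh1 binds, was found in 8 of 30 genes (26.7%, against 14.7% of 27025 genes). TTTATG, of the CDX type, was found in 4 of 30 genes (13.3%, against 12.4% of all genes). The related motif TTTATT, which on its other strand spells the common polyadenylation signal, was found in 3 of 30 genes, against 20.4% of all genes. For the HNF4 type the letters searched were AAAGTCC, found in 0 of 30 genes, against 4.2% of all genes. Shown here are the promoter with 2 E-box matches, that of Chga (chr12:102554691-102554940, plus strand), and the 1 with both CDX-type motifs, an internal promoter of Dclk1 (chr3:55461478-55461727, plus strand). Hnf4a, a nuclear receptor of absorptive cells, has 2 listed starts and both are shown, a pair chosen after the transcript values were seen (chr2:163506607-163506856 and chr2:163546905-163547154, plus strand). Capitals mark the motifs found. A match is a description of the letters, not a site of binding.
Chga promoter: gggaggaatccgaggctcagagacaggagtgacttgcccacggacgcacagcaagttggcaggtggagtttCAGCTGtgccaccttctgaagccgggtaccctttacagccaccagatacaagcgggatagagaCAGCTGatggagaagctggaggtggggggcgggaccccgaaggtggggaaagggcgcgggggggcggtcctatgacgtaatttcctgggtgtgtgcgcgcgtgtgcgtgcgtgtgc
Dclk1 internal promoter: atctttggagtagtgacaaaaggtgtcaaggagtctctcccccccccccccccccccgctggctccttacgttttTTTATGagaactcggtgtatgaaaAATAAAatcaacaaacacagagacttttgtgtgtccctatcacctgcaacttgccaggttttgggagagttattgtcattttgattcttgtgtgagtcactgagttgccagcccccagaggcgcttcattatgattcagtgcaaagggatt
Hnf4a upstream promoter: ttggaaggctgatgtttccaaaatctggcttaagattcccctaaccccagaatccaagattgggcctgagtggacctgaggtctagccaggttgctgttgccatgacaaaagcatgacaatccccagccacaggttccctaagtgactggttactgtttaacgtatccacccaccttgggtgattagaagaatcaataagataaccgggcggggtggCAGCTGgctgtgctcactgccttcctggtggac
Hnf4a downstream promoter: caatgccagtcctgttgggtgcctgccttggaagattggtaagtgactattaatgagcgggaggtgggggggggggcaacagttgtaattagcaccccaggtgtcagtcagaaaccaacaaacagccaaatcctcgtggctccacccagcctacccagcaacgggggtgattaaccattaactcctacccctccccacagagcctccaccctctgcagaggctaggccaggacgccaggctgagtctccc

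Counts were estimated for transcripts of both Hnf4a starts in the colonic libraries, which does not show that both were in use. The short transcript Hnf4a-205, which begins at the upstream start and holds few counts, held between 34.7 and 68.4% of the TPM of Hnf4a transcripts with a known start in the 8 colonic libraries. The gene as a whole read 60.5 and 43.5 CPM in colonic MHCII+, 5.80 and 8.66 CPM in CD11b+CD11c+, 13.1 and 8.42 CPM in CD11b+, 4.78 and 6.49 CPM in CD11c+ and 0.0657 and 0.0847 CPM in splenic MHCII+ libraries. An antisense gene, Hnf4aos, overlaps it, and the sources used here do not give the strand setting of the counting.

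The 2 tuft cell genes went their own ways. Trpm5, the cation channel of taste and tuft cells (chr7:143069153-143094642, minus strand), was highest in the colonic group where the sum of the 40 genes was lowest. It read 4.42 and 8.04 CPM in colonic MHCII+, 3.45 and 3.17 CPM in CD11b+CD11c+, 1.34 and 1.94 CPM in CD11b+, 11.1 and 13.2 CPM in CD11c+ and 2.15 and 1.86 CPM in splenic MHCII+ libraries. Both CD11c+ libraries lay above all others. It was lower in CD11b+ than in CD11c+ libraries by edgeR, at log2 -2.85 ± 0.25 (adjusted p = 0.00057), and in CD11b+CD11c+ than in CD11c+ libraries, at -1.94 ± 0.24 (adjusted p = 0.0019).

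Most Trpm5 counts came from 1 short transcript. Trpm5-206, with 573 coding bases against 3477 in the full-length Trpm5-201, held 93.6% or more of Trpm5 counts in the colonic MHCII+, CD11b+CD11c+ and CD11c+ libraries. In the CD11b+ libraries it held 76.5 and 87.9%, and in the splenic ones 78.5 and 62.0%. Its last coding exon, 155 bases at chr7:143069311-143069465, lies wholly within exons of Tssc4, a gene on the opposite strand. Of these bases 0 lie in the coding sequence of Tssc4. Tssc4 read 40.05 and 51.6 CPM in colonic MHCII+, 26.2 and 25.05 CPM in CD11b+CD11c+, 20.6 and 15.1 CPM in CD11b+, 75.4 and 85.6 CPM in CD11c+ and 21.6 and 19.4 CPM in splenic MHCII+ libraries, and was highest in the same CD11c+ libraries. The kit marks strand, but no strand setting is known for the counting. Reads of the 2 genes over that exon therefore cannot be told apart, and the Trpm5 values are uncertain.

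**Figure D4:**
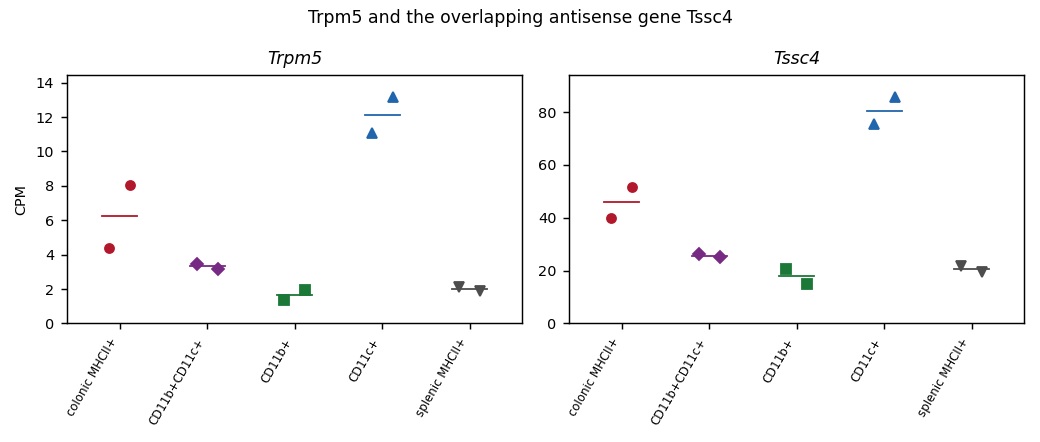
Level (CPM) of Trpm5 and of the overlapping opposite-strand gene Tssc4 in each of the 10 libraries by group, 1 point per library. Both genes are highest in the CD11c+ libraries, at 11.1 and 13.2 CPM for Trpm5 and 75.4 and 85.6 CPM for Tssc4.

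Dclk1, a microtubule-binding kinase used as a tuft cell marker (chr3:55242364-55539068, plus strand), was low everywhere and highest in CD11b+ libraries. It read 0.964 and 0.799 CPM in colonic MHCII+, 0.514 and 0.343 CPM in CD11b+CD11c+, 4.10 and 3.30 CPM in CD11b+, 1.19 and 0.741 CPM in CD11c+ and 0.110 and 0.339 CPM in splenic MHCII+ libraries. These rest on few reads, with 7 and 4 counts in CD11b+CD11c+ and 52 and 56 counts in CD11b+ libraries. Dclk1 was higher in CD11b+ than in CD11c+ libraries, at log2 1.91 ± 0.37 (adjusted p = 0.0069 by edgeR), and lower in CD11b+CD11c+ than in CD11b+ libraries, at -3.15 ± 0.43 (adjusted p = 0.0093). On TPM, limma lost both calls. With offsets of 1 and 0.1 it gave log2 0.36 and 0.47 for Dclk1 in CD11b+ against CD11c+ libraries (adjusted p = 0.48 and 0.65), and -1.4 and -2.52 in CD11b+CD11c+ against CD11b+ libraries (adjusted p = 0.11 and 0.14). The TPM of Dclk1 was 2.01 and 4.31 in CD11b+ and 1.75 and 2.51 in CD11c+ libraries, so those groups overlapped. By edgeR, the call in CD11b+CD11c+ against CD11b+ libraries was lost on leaving out any CD11b+CD11c+ or CD11b+ library. The transcript Dclk1-203 held 41.7 to 73.3% of its counts in the colonic libraries. Stromal and endothelial markers summed to 4761 and 4312 CPM in CD11b+ libraries, against 1405 and 1595 CPM in CD11c+ libraries, with 8 of 10 called higher, and their part in the Dclk1 result was not tested.

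The other genes used as tuft cell markers did not move as a unit either. In CD11b+ against CD11c+ libraries 7 of 11 tested were higher and 1 lower, led in level by Ptgs1 at 129.0 ± 24.96 against 19.31 ± 18.99 CPM and Alox5 at 120.7 ± 4.306 against 4.895 ± 1.727 CPM (SD, n = 2 each). Both encode enzymes of eicosanoid synthesis that myeloid cells also make. Avil, picked after its values were seen, went the other way, at 0.394 and 1.24 CPM in CD11b+ and 4.46 and 4.45 CPM in CD11c+ libraries. Pou2f3 and Il25, picked likewise, read 0 CPM in the CD11b+ and CD11c+ libraries. Gfi1b, a transcription factor of tuft cells and of blood cell precursors, was lower in CD11b+CD11c+ than in CD11b+ libraries, at 4.355 ± 0.7564 against 29.71 ± 3.891 CPM.

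Set against the integrin-sorted subsets, the colonic MHCII+ libraries held more of nearly every gene. Of the 40, 38 were higher and 0 lower, beside a background of 20.5% of 15074 genes higher and 15.3% lower. No gene was lower at an unadjusted p below 0.05, nor by DESeq2 or limma. Dclk1 and Trpm5 were not called, at log2 -0.39 ± 0.46 and 0.61 ± 0.25. The median was 2.79, a 6.92-fold difference, and role medians lay close together, between 2.65 and 2.92 for the structural, absorptive, goblet, transcription factor and endocrine genes. Guca2a changed most, at 3.54 ± 0.13, and Clca1 least of the genes called, at 1.45 ± 0.49 (adjusted p = 0.048 by edgeR, 0.052 with the size factors of DESeq2 and 0.21 by DESeq2). Against the splenic MHCII+ libraries, the mean of the subsets was higher for 38 genes and lower for 0, beside a background of 33.8% higher and 34.7% lower, with a median of 6.44. No gene was lower there at an unadjusted p below 0.05, nor by DESeq2 or limma. Lgr5 and Ascl2 were not called. In the colonic MHCII+ libraries against the subsets, all 18 junction genes, 15 of 16 further goblet genes and 19 of 21 further absorptive genes were higher too. Of the 7 plasma cell markers 4 were lower, and the sum of the 10 stromal markers was 1191 and 1437 CPM in colonic MHCII+ libraries and 833 to 4761 CPM over the 6 subset libraries.

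To compare the mix of lineages apart from the total, each gene was set against the summed counts of the 9 structural genes within each of the 8 colonic libraries. This scaling was added after the data were seen. The mix within the 9 structural genes was itself not level. Cdh1 made up 153.7 and 93.4 per 1000 in CD11c+ libraries, against 59.5 and 54.3 in colonic MHCII+ libraries. Epcam made up 114.6 and 118 against 75.5 and 72.6 in the same groups, while Krt19 went the other way, at 112 and 120 against 178 and 203. The effect of this on ratios that involve CD11c+ libraries was not tested. On it several absorptive genes and transcription factors varied little. Vil1 lay between 38.3 and 42.9 counts per 1000 structural counts over the 8 libraries, a 1.12-fold range, although its CPM lay between 17.9 and 197 over the same libraries. Lgals4 lay between 122 and 157 and Cdx1 between 10.7 and 13.5 per 1000. Leaving out the 9 structural genes, which make up the denominator, 7 of 31 genes had a range below 1.5-fold and 14 below 2-fold. Such shares were not computed over all genes or over the other epithelial lists.

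Chgb had the widest range, from 2.42 to 72.4 per 1000, or 29.9-fold. It read 32.0 and 27.3 per 1000 in colonic MHCII+, 72.4 and 48.3 in CD11b+CD11c+, 46.2 and 60.2 in CD11b+ and 2.42 and 12.9 in CD11c+ libraries. Trpm5 followed with a 28.2-fold range, at 24.2 and 23.4 per 1000 in CD11c+ libraries and no more than 5.44 elsewhere, then Dclk1 with 23.5-fold and Chga with 10.5-fold. Clca1 had a 7.44-fold and Fcgbp a 5.52-fold range.

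Of the 31 other genes tested on this scale, 6 were higher in CD11b+ than in CD11c+ libraries and 1, Trpm5, was lower. The 6 were Chgb at log2 2.82, Chga at 2.44, Tff3 at 1.06, Clca1 at 0.89, Zg16 at 0.80 and Fcgbp at 0.77. SEs on this scale were alike for genes of unlike spread, at 0.31 for Vil1, 0.32 for Clca1 and Fcgbp and 0.35 for Chgb. Calls per structural count, in every comparison, therefore rest on a spread shared over genes more than on each gene's own. The goblet genes Reg4, Agr2, Atoh1, Spdef and Muc2 were not called, at 0.59, 0.39, 0.31, 0.21 and 0.04. Clca1 lay at 57.0 and 109.8 per 1000 in CD11b+ and 24.2 and 66.2 in CD11c+ libraries, and Fcgbp at 127 and 186 in CD11b+ and 50.9 and 133 in CD11c+ libraries, so the groups overlapped for both. The background was 7.26% of 14729 genes higher and 56.6% lower, and the median of the 31 genes was 0.31. In CD11b+CD11c+ against CD11c+ libraries Chgb, Chga, Clca1, Zg16, Fcgbp, Tff3 and Reg4 were higher and Trpm5 was lower, beside 9.47% higher and 24.9% lower. Without CD11b+ replicate 2, 3 genes were called higher in the first of these comparisons, and without CD11b+CD11c+ replicate 2, 3 in the second. In CD11b+CD11c+ against CD11b+ libraries only Trpm5, at 1.46, was higher and only Dclk1, at -2.57, lower, beside 15.5% higher and 3.33% lower. Of these the Trpm5 call was lost without CD11b+CD11c+ replicate 1 or CD11b+ replicate 1, and the Dclk1 call without CD11b+ replicate 1 or CD11b+CD11c+ replicate 2.

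In colonic MHCII+ libraries against the mean of the subsets, Guca2a at 0.74 and Spdef at 0.65 were higher per structural count, and Dclk1 at -3.20, Trpm5 at -2.19, Clca1 at -1.32 and Lgr5 at -1.23 were lower. The background was 0.231% higher and 92.9% lower, since structural counts themselves were higher in those libraries, and the median of the 31 genes was -0.07. The 2 higher calls became 1 without colonic MHCII+ replicate 1 and 0 without replicate 2.

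**Figure D5:**
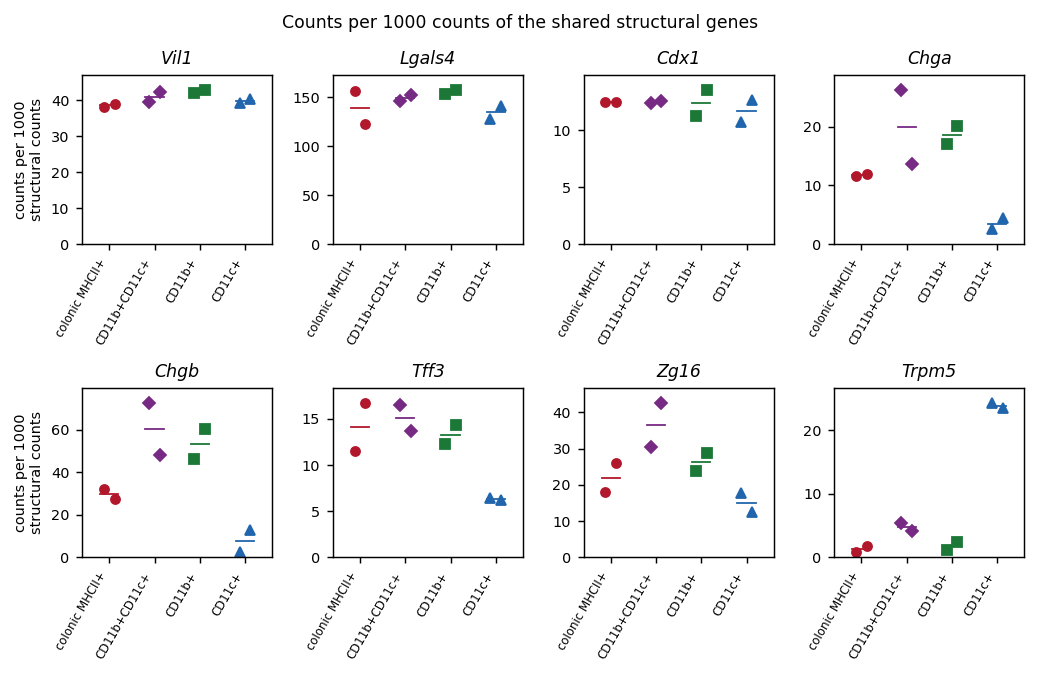
Counts per 1000 counts of the 9 structural genes for 8 genes, by colonic group, 1 point per library with a line at the group mean, on linear axes from 0. Vil1, Lgals4 and Cdx1 are level across the groups, Chga, Chgb, Tff3 and Zg16 are lowest in CD11c+ libraries, and Trpm5 is highest there.

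Part of a set of genes typical of the small intestine behaved differently from the colonic ones. Of 10 tested, 5 were lower and 1 higher in colonic MHCII+ libraries than in the mean of the subsets. Apoa1, an apolipoprotein of enterocytes and liver, read 0.498 and 0.213 CPM in colonic MHCII+ libraries, 30.6 and 16.6 CPM in CD11b+CD11c+, 15.5 and 13.8 CPM in CD11b+ and 23.3 and 26.6 CPM in CD11c+ libraries, at log2 -5.72 ± 0.47. Apob, its partner on secreted lipid particles, read 3.05 and 1.81 CPM in colonic MHCII+ libraries and 13.5 to 29.5 CPM over the 6 subset libraries, at -3.06 ± 0.37. Fabp1, a fatty acid carrier chosen here after its values were seen, had no counts in the colonic MHCII+ libraries and 6.61 to 18.4 CPM over the subsets. Other genes of the set, also picked after their values were seen, were low and went the other way. In colonic MHCII+ libraries Sis read 0.342 and 0.692 CPM, Fabp6 1.12 and 0.852 CPM, and Rbp2 0.342 and 0.906 CPM. Over the subset libraries they read at most 0.220, 0.394 and 0.0788 CPM in the same order. The gate and the set of libraries cannot be told apart for these genes.

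Muc2 reads were spread unevenly along the gene. Of its transcripts, Muc2-204 covers the 5′ end (chr7:141690340-141698782) and Muc2-201 the 3′ end (chr7:141746832-141754690). The TPM of Muc2-201 over that of Muc2-204 was 1.34 and 0.724 in colonic MHCII+ libraries, 0.170 and 0.0507 in CD11b+CD11c+, 0.265 and 0.387 in CD11b+ and 0.120 and 0.229 in CD11c+ libraries. Both colonic MHCII+ libraries lay above all 6 subset libraries. Fold changes of Muc2 between the sets of libraries therefore depend on which end is counted.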

How the data were processed

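Per the submitters' processing notes, the authors used kallisto 0.44.0 and sleuth with mm10. The deposited table of each library lists 66760 transcripts, most of them coding sequences, with estimated counts and TPM, a length-scaled share of the library,, per the file headers. The strand setting: not given in the sources used here. RNA was poly(A)-selected and made into libraries with a directional kit, per the labels.

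From these, 65747 transcripts (98.48%) were matched to GENCODE M21 and summed to 22607 genes. Rows with no gene held 0.532 to 0.912% of counts and were left out. Summed counts were rounded and tested with edgeR 4.0.16 (filterByExpr, TMM, quasi-likelihood, adjusted p below 0.05) in R 4.3.3. The 4 MHCII+ libraries, the 6 integrin-sorted libraries and, for comparisons across these sets, all 10 were fitted separately. TPM served for ranks between genes and for limma 3.58.1. DESeq2 1.42.0, other scaling, no filter, left-out libraries and a fit per structural count (added after the data were seen) were alternatives. Both spleen titles carry the same replicate number, so those libraries are numbered in accession order. On simulated data, 57% of genes changed by log2 1 and 98% of those changed by log2 2 were recovered in the fit of CD11b+ against CD11c+. That fit held 14116 genes, of which a small sample was changed. The changed genes were drawn above a count floor and all given the same spread. Recovery for members with fewer counts or more spread was not simulated. The rule for named genes was all 40 members and, of each other list, the 2 called genes of highest CPM. Not all of these list genes are named, and genes outside the rule are marked as chosen after their values were seen. The genes and lists were chosen with earlier results of these data known. Promoters are RefSeq sequences. The floor of 3 counts covers counting error only.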

Additional observations from a re-analysis of the deposited data

How the results depend on the processing

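With 2 libraries a group, changes below about 2-fold are often missed, so a gene not called is not shown to be unchanged. No gene reversed under any alternative run. Of the single-gene calls, DESeq2 and the RLE size factors each lost 1 and left 154, limma on log2(TPM + 1) lost 9 and left 146, limma on log2(TPM + 0.1) lost 8 and left 147, and the fit of all 10 libraries lost 2 and left 77. Leaving out 1 library lost 99 and left 1241, counted over all omissions. Without a count filter, the genes higher in CD11b+CD11c+ than in CD11c+ libraries were 13 in place of 8, and in CD11b+CD11c+ against CD11b+ libraries 1 was higher in place of 0 and 4 lower in place of 1. DESeq2 called 4 lower in that last comparison and limma 0 with either offset. The cause was not tested. Leaving out 1 library gave 14 to 30 genes higher in CD11b+ than in CD11c+ libraries, 5 to 12 higher in CD11b+CD11c+ than in CD11c+, 0 to 3 lower in CD11b+CD11c+ than in CD11b+, and 37 to 38 higher in colonic MHCII+ than in splenic MHCII+ libraries, in colonic MHCII+ libraries than in the subsets, and in the subsets than in splenic MHCII+ libraries. Per structural count, the ranges were 3 to 5 higher in CD11b+ than in CD11c+ libraries, 3 to 7 higher and 1 to 2 lower in CD11b+CD11c+ than in CD11c+, 0 to 1 higher and 0 to 1 lower in CD11b+CD11c+ than in CD11b+, and 0 to 3 higher and 3 to 5 lower in colonic MHCII+ libraries than in the subsets. Over all genes, the median log2 fold change by limma (offset 0.1) was 0.172 in colonic MHCII+ libraries against the subsets (0.011 by edgeR). It was -0.146 in colonic against splenic MHCII+ libraries (0.018 by edgeR). In the subsets against splenic MHCII+ libraries it was -0.324 (-0.021 by edgeR). The share of called genes that were higher was 77.3% by limma in place of 57.2% in colonic MHCII+ libraries against the subsets. The replicate numbers were not taken to pair the subset libraries, since only 1 of 3 correlations passed 0.1. Over 10622 genes, deviations of same-numbered libraries from their group means correlated at 0.00 for CD11b+CD11c+ with CD11b+ and -0.04 for CD11b+ with CD11c+. The correlation was 0.39 for CD11b+CD11c+ with CD11c+. With 2 libraries a group, a low correlation cannot exclude a shared preparation, so whether the libraries are paired is not known. With a replicate block, Slc26a3 (0.81, adjusted p = 0.069 by edgeR), Hnf4a (0.95, 0.059) and Aqp4 (0.84, 0.056) were no longer called in CD11b+ against CD11c+ libraries. With that block 28 genes were higher in CD11b+ than in CD11c+ libraries in place of 29, and 11 in CD11b+CD11c+ than in CD11c+ libraries in place of 8, including all 8.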
